A study of Mus musculus with 8 samples.

Results

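The transcripts described here encode the cell surface receptor chains through which blood cell precursors sense myeloid growth factors: Csf3r, Csf2ra, Csf2rb, Csf2rb2, Il3ra, Il6ra, Il6st, Csf1r, Il4ra and Il2rg. They were taken as all probe sets whose array annotation gives 1 gene symbol equal to one of these 10 names. This gave 19 probe sets of 45037, for 9 genes of 18193; Il2rg was not analysed here. All 9 were measured in 32Dcl3 cells, a mouse myeloid precursor line kept alive by interleukin-3 (IL-3) and able to mature under granulocyte colony-stimulating factor (G-CSF).

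The comparison was between ASXL1-MT and mock cultures. ASXL1-MT cells carried the retroviral construct pMYs-FLAG-ASXL1-MT-IG, and mock cells carried the empty vector pMYs-IG. G-CSF was given for 2, 6 or 24 h, IL-3 served as the baseline, and 1 Affymetrix mouse array was run for each vector and time, 8 in all. The labels state neither the species or extent of the ASXL1 cDNA, nor whether IL-3 was removed, nor whether each vector was represented by more than 1 transduction or clone. No condition was replicated, so every test rested on 1 additive fit of time point and vector over the 8 arrays, in which the 2 cultures stand in for replicates of a time point. The p-values therefore measure only the spread that this fit leaves, which may be technical, and the number of arrays limits the precision.

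Cytokine receptors of this kind have no kinase domain of their own, with the exception of Csf1r, a receptor tyrosine kinase. A ligand brings chains together, the Janus kinases bound to their tails become active, and STAT proteins are recruited and carry the signal to the nucleus. The receptors for IL-3 and for granulocyte-macrophage colony-stimulating factor (GM-CSF) pair a private alpha chain (Il3ra, Csf2ra) with a shared beta chain (Csf2rb), and mice carry a second beta chain gene, Csf2rb2, whose product serves IL-3 alone. The G-CSF receptor Csf3r works as a homodimer, Il6ra signals through the shared chain Il6st (gp130), and Il4ra is the signalling chain for IL-4 and IL-13.

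Values are read as log2 expression, centred so that the median of each probe set over the 8 arrays is 0. A value of 1 is thus a signal 2 times the median of that probe set, and values of different probe sets cannot be ranked against each other. The log base is not stated; base 2 follows from RMA, and under a natural log every difference would be larger. The median level of each probe set was estimated in bands, under 4, 4 to 8, and 8 or more log2 units. The fit left a median residual SD of 1.19, 0.59 and 0.11 log2 in these bands, in that order, so dim probe sets were measured far less precisely. A probe set was tested when its second-highest array reached an estimated level of 6.26, which kept 29353 probe sets. The arrays of 1 time point suffice for this, so a probe set high only at that time could be tested. Of the 19 receptor probe sets 15 were tested, and 4 were too dim. For each gene the probe set of highest estimated level, rounded to a whole log2 unit, stands for the gene. Ties went by name ending, in the order _at, _a_at, _s_at and _x_at, and then to the first name. By this probe set 8 of the 9 genes were tested, and neither Csf2ra probe set passed the filter. Errors after ± are standard errors (SE) of the fit, and a gene is said to have risen or fallen where limma's adjusted p was under 0.05. Mouse Asxl1 probe sets could not check the vector, because the cDNA's species and extent are not given; the differences, ASXL1-MT minus mock, were -0.34, -0.04 and 0.68, and none passed.

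The start regions of 4 receptor genes that changed in G-CSF are shown, those whose standing probe sets had a level of 8 or more. Each line gives the RefSeq sequence of build GRCm38.p6 on the gene's own strand, 5′ to 3′, with 250 bases before and 50 after the annotated start. For Csf3r and Il3ra this start lies inside the gene span given further below. Their motif positions therefore do not count from the first base of that span. Capitals mark matches, on either strand, to 3 motifs: TTCNNNGAA of the STAT factors, GAGGAA of PU.1 and ATTGC, a half-site of the C/EBP family.
Csf3r, chr4:126024409-126024708, plus strand: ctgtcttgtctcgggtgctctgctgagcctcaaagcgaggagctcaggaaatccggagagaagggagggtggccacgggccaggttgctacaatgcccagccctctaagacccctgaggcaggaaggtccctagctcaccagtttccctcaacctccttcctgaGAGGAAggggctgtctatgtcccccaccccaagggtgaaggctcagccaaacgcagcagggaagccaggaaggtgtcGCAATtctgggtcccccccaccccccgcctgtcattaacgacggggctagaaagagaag
Csf2rb2, chr15:78305672-78305971, minus strand: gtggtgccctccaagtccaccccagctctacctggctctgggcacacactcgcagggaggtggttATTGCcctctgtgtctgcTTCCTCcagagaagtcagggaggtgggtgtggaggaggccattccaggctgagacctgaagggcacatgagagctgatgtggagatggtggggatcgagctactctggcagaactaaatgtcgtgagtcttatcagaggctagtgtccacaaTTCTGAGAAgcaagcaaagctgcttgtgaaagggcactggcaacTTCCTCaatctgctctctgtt
Il3ra, chr14:14346245-14346544, plus strand: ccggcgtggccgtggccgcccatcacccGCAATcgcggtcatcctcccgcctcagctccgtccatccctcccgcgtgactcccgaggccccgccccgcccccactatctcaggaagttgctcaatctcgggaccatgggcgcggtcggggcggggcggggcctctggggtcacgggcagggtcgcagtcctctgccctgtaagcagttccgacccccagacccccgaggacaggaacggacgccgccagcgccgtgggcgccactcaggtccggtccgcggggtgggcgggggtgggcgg
Il4ra, chr7:125552021-125552320, plus strand: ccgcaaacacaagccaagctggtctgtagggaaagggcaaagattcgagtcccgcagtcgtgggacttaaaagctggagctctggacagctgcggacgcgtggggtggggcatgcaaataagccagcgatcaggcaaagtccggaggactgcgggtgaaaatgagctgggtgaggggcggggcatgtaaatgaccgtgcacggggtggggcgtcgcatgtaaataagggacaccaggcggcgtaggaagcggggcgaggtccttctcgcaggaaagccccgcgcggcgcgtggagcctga

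Among these, the Csf3r sequence held a PU.1 match at -86 to -81 from the start and a C/EBP half-site at -9 to -5. The Csf2rb2 sequence held the STAT motif at -15 to -7, PU.1 matches at -167 to -162 and at 30 to 35, and a half-site at -185 to -181. The Il3ra sequence had only a half-site, at -222 to -218, and the Il4ra sequence had none of the 3. Il6ra, which rose at 24 h on a dimmer probe set and is not printed, held a PU.1 match at -70 to -65 and a half-site at -136 to -132. Sequences were found for 7 of the 9 measured genes, leaving Csf2rb and Csf1r. Of those 7, 1 held the STAT motif, against 8.3% of 32851 promoters of that length; 4 held the PU.1 motif, against 28.3%; and 4 held the half-site, against 26.4%. The motifs were chosen after the sequences had been seen, and a match is only a description of the letters.

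The 24 h comparison asks how receptor transcripts stand once the cells have been in G-CSF for a day. Transcripts of 7 of the 8 tested genes were higher than in IL-3 and none was lower. They were the G-CSF receptor Csf3r, both beta chains Csf2rb and Csf2rb2, the IL-3 receptor alpha chain Il3ra, Il6ra, Csf1r and Il4ra, with rises of 2.61-fold to 9.22-fold. The top of this range is 1 Il6ra probe set of level 4 to 8. The other Il6ra probe set gave 1.22-fold and did not pass, and the next largest rise was that of Csf3r, 4.46-fold. Over all genes tested by the same rule, 22.4% were called at 24 h, made up of 12.4% higher and 9.96% lower. The median change of the 8 receptor genes was 1.65 log2, against 0.09 over all genes. By probe set, 11 of 15 rose, against 20.1% called over all probe sets (11.8% higher). The early time points gave fewer calls. At 6 h 3 receptor genes rose and 1 fell, where 12.2% of all genes were called, and at 2 h none passed. All comparisons with IL-3 share the same 2 IL-3 arrays.

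**Figure D1:**
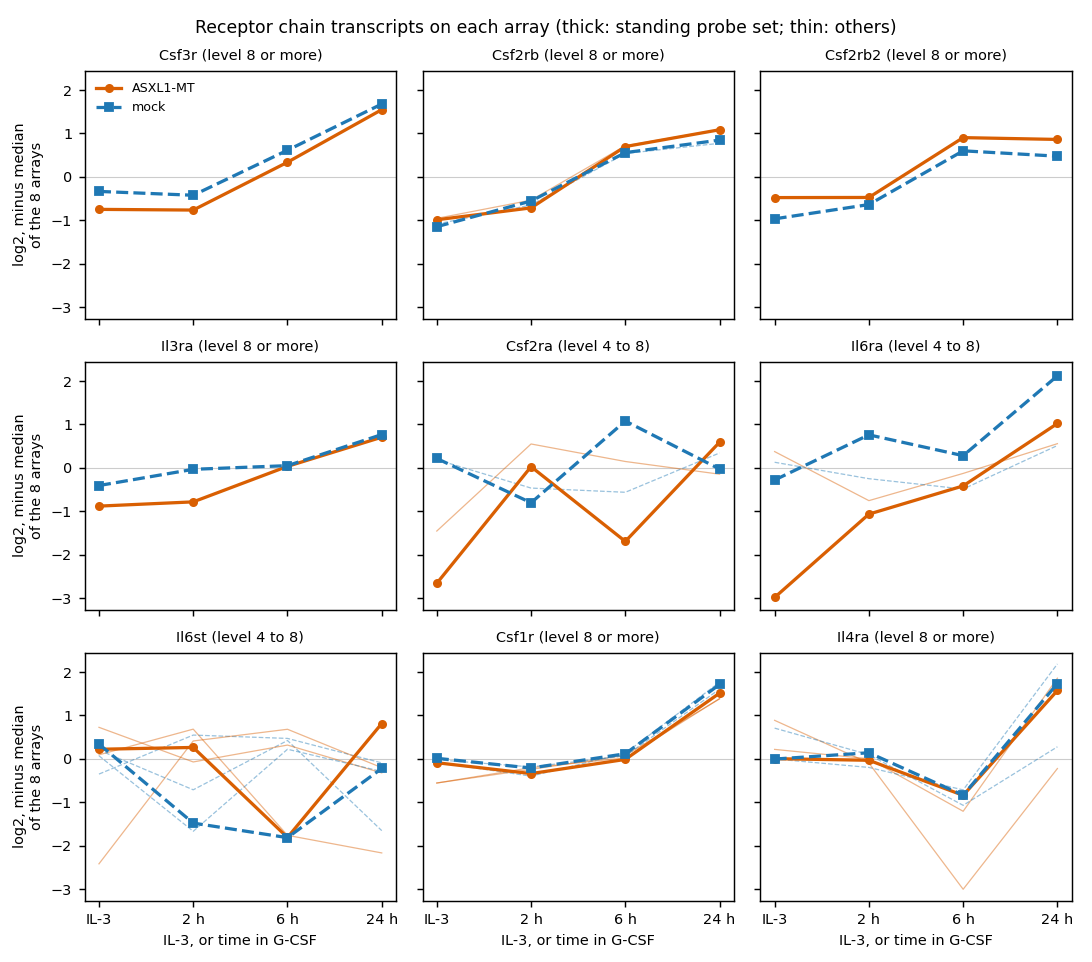
Values of the receptor chain probe sets on each of the 8 arrays (vertical axis, log2 minus the median of the 8 arrays) by condition (horizontal axis, IL-3 and then 2, 6 and 24 h of G-CSF). Orange circles and solid lines are ASXL1-MT, blue squares and dashed lines mock; thick lines are the probe set that stands for the gene, thin lines the others. Thick lines of the 2 cultures run together for Csf3r, Csf2rb, Csf1r and Il4ra, lie apart for Il6ra, and scatter for Csf2ra and Il6st, whose probe sets are dim. A thin Il4ra line, 1447858_x_at, parts at 6 h (-3.01 in ASXL1-MT, -1.07 in mock cells).

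Csf3r, the receptor for the cytokine that was added (chromosome 4, 126023441 to 126044975 in GRCm38.p6), had 1 probe set, 1418806_at, of level 8 or more. In ASXL1-MT cells it measured -0.75 in IL-3, -0.77 at 2 h, 0.34 at 6 h and 1.55 at 24 h. In mock cells it measured -0.34 in IL-3, -0.42 at 2 h, 0.61 at 6 h and 1.68 at 24 h. In both cultures the 24 h array was highest and the 6 h array next, while IL-3 and 2 h lay together at the bottom. The 24 h arrays lay above all others, with no overlap. The fitted rise over IL-3 was 1.02 ± 0.11 at 6 h (adjusted p = 0.0253) and 2.16 ± 0.11 at 24 h (adjusted p = 0.00905), a 4.46-fold difference. At 2 h the difference was -0.05 ± 0.11. The 24 h arrays exceeded the 6 h arrays by 1.14 ± 0.11, which missed the threshold (adjusted p = 0.0532). The 6 h change was 47.3% of the 24 h change in ASXL1-MT cells and 47.1% in mock cells. A second quantile normalization, here and below, was run on the centred values plus each probe set's estimated level. After it the difference of 24 h from 6 h was 0.46 (adjusted p = 0.219), and the fitted share at 6 h was 70.4%. With the arrays centred on their medians, which adds no estimated level, the difference was 1.12 (adjusted p = 0.0527).

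Csf2rb (chromosome 15, 78325800 to 78351001), the chain shared by the receptors for IL-3, GM-CSF and IL-5, had 2 probe sets that tracked each other closely, with a Pearson r of 0.996 over the 8 arrays. By 1421326_at, ASXL1-MT cells measured -0.99 in IL-3, -0.72 at 2 h, 0.70 at 6 h and 1.08 at 24 h. By the same probe set, mock cells measured -1.15 in IL-3, -0.56 at 2 h, 0.56 at 6 h and 0.85 at 24 h. The 6 and 24 h arrays of both cultures lay above all IL-3 and 2 h arrays. Csf2rb rose by 1.70 ± 0.14 at 6 h (adjusted p = 0.0212) and by 2.03 ± 0.14 at 24 h (adjusted p = 0.0106). The second probe set, 1455660_at, gave 1.65 ± 0.10 and 1.95 ± 0.10 at these times. In the values as deposited, the 6 h change was 81.3% of the 24 h change in ASXL1-MT cells and 85.5% in mock cells, and 24 h differed from 6 h by 0.34 ± 0.14 (adjusted p = 0.239). The order of these times depended on scaling: after a second quantile normalization the difference was -0.20 (adjusted p = 0.518), with 1.87 at 6 h and 1.67 at 24 h over IL-3. That normalization rests on the estimated levels. With the arrays centred on their medians the difference was 0.32 (adjusted p = 0.244). At 2 h Csf2rb stood 0.43 ± 0.14 above IL-3, short of the threshold (adjusted p = 0.58).

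Csf2rb2 lies on the same chromosome (78282507 to 78305721), 20078 bases from Csf2rb. Its probe set 1449360_at measured -0.48 in IL-3, -0.48 at 2 h, 0.90 at 6 h and 0.86 at 24 h in ASXL1-MT cells. In mock cells it measured -0.97 in IL-3, -0.64 at 2 h, 0.60 at 6 h and 0.48 at 24 h. The 6 h array was the highest in each culture, by a small margin over 24 h. Csf2rb2 rose by 1.47 ± 0.12 at 6 h (adjusted p = 0.0212) and by 1.39 ± 0.12 at 24 h (adjusted p = 0.0121), and 24 h differed from 6 h by -0.08 ± 0.12 (95% interval -0.41 to 0.24). The 2 genes are near-identical copies, and signal may cross between their probe sets; Csf2rb and Csf2rb2 values correlated over the arrays (r = 0.961). A further probe set annotated to both, 1450200_s_at, is outside the set by the rule and differed from IL-3 by 0.89 ± 0.21 at 2 h, 2.01 ± 0.21 at 6 h and 2.47 ± 0.21 at 24 h.

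The alpha chains that pair with these beta chains gave a less complete picture. Il3ra (chromosome 14, 14345912 to 14355493), which binds IL-3, measured -0.88 in IL-3, -0.78 at 2 h, 0.03 at 6 h and 0.71 at 24 h in ASXL1-MT cells. In mock cells it measured -0.41 in IL-3, -0.03 at 2 h, 0.05 at 6 h and 0.77 at 24 h. Only the 24 h arrays stood clear of the rest. Il3ra rose by 1.38 ± 0.23 at 24 h (adjusted p = 0.0266), a 2.61-fold difference, and stood 0.69 ± 0.23 above IL-3 at 6 h, which did not pass (adjusted p = 0.137). Its call at 24 h was lost when the arrays were quantile-normalized again (0.95, adjusted p = 0.0694).

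Csf2ra (chromosome 19, 61217191 to 61228461), which binds GM-CSF, was too dim to test. Its probe set 1420703_at measured -2.66 in IL-3, 0.03 at 2 h, -1.70 at 6 h and 0.59 at 24 h in ASXL1-MT cells. In mock cells it measured 0.22 in IL-3, -0.81 at 2 h, 1.08 at 6 h and -0.03 at 24 h. The cultures gave different orders of the time points, and the other probe set, 1420704_at, followed the first only loosely (r = 0.496). Whether the cells expressed the GM-CSF receptor alpha chain cannot be read from these values.

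**Figure D2:**
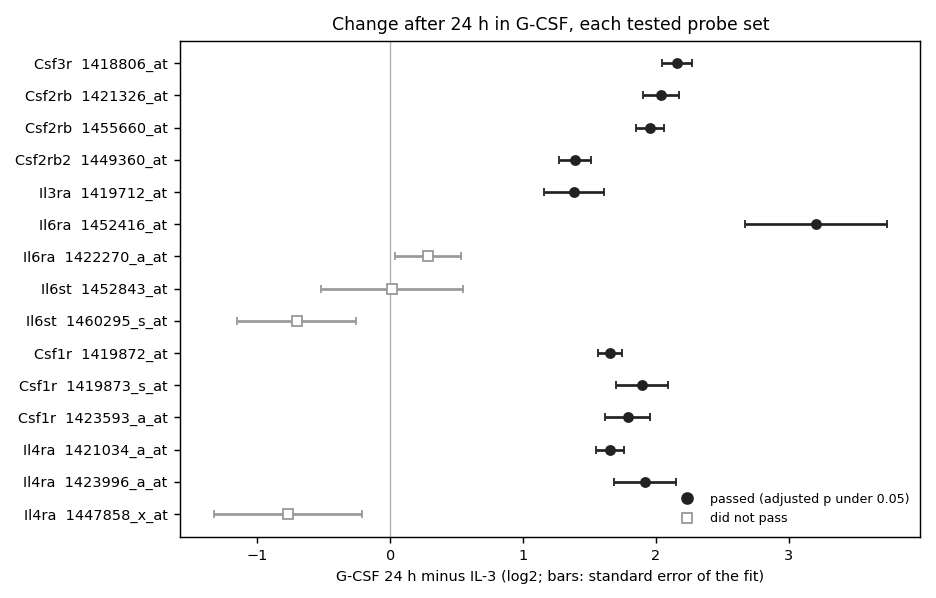
Change after 24 h in G-CSF relative to IL-3 for each of the 15 tested probe sets (horizontal axis, log2; bars are the SE of the fit), ordered by gene. Filled circles passed at an adjusted p under 0.05 and open squares did not; the 11 filled circles all lie above 1, and the 4 open squares belong to Il6ra, Il6st and Il4ra.

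Both chains of the IL-6 receptor were represented by probe sets of level 4 to 8. Il6ra (chromosome 3, 89869324 to 89913196), the chain that binds IL-6, had 2 probe sets. By 1452416_at, ASXL1-MT cells measured -2.99 in IL-3, -1.07 at 2 h, -0.42 at 6 h and 1.02 at 24 h. In mock cells this probe set measured -0.28 in IL-3, 0.76 at 2 h, 0.28 at 6 h and 2.12 at 24 h. The 24 h array was highest and the IL-3 array lowest in each culture, but the mock arrays lay above the ASXL1-MT arrays at every time. The fitted rise at 24 h, 3.20 ± 0.53 (adjusted p = 0.0274), was the largest of the set and had one of the largest errors. The other probe set, 1422270_a_at, gave 0.28 ± 0.25 at 24 h (adjusted p = 0.47) and correlated with the first at only r = 0.20. With the mean of both probe sets the change at 24 h was 1.74 (adjusted p = 0.0332). For 1452416_at alone, a fit without a vector term gave the same 3.20 and did not pass (adjusted p = 0.0939).

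Il6st (chromosome 13, 112464070 to 112506860), the chain shared by the IL-6 family of cytokines, was the tested gene that did not rise. Its probe set 1452843_at measured 0.22 in IL-3, 0.26 at 2 h, -1.81 at 6 h and 0.81 at 24 h in ASXL1-MT cells. In mock cells it measured 0.34 in IL-3, -1.48 at 2 h, -1.82 at 6 h and -0.22 at 24 h. Both 6 h arrays were low, and the fit put 6 h 2.09 log2 below IL-3 with an SE of 0.53, which did not pass (adjusted p = 0.0847). At 24 h it differed from IL-3 by 0.02 ± 0.53, with a 95% interval of -1.44 to 1.47 that includes the rises of Csf2rb2 and Il3ra. The correlations among the 4 Il6st probe sets ran from -0.31 to 0.19. The other tested one, 1460295_s_at, differed from IL-3 by -0.13 ± 0.45 at 6 h (adjusted p = 0.88) and by -0.71 ± 0.45 at 24 h (adjusted p = 0.337). The mean of the Il6st probe sets was -0.27 at 6 h (adjusted p = 0.743).

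Csf1r encodes the tyrosine kinase that binds the macrophage growth factor CSF-1. By 1419872_at, ASXL1-MT cells measured -0.09 in IL-3, -0.34 at 2 h, -0.01 at 6 h and 1.51 at 24 h. In mock cells it measured 0.01 in IL-3, -0.21 at 2 h, 0.12 at 6 h and 1.72 at 24 h. The IL-3, 2 h and 6 h arrays lay close together and the 24 h arrays stood far above them. Csf1r rose by 1.65 ± 0.09 at 24 h over IL-3 (adjusted p = 0.00925) and by 1.56 ± 0.09 over 6 h (adjusted p = 0.0349), while 6 h differed from IL-3 by 0.09 ± 0.09 (adjusted p = 0.563). By this probe set 4.76% of the 24 h change was reached by 6 h in ASXL1-MT cells and 6.14% in mock cells. At 6 h 1419873_s_at stood 0.42 ± 0.20 above IL-3 (0.64 in ASXL1-MT, 0.21 in mock cells). For 1423593_a_at the 6 h difference was 0.33 ± 0.17 (0.58 in ASXL1-MT, 0.09 in mock cells), and neither passed. The other 2 probe sets rose at 24 h by 1.89 ± 0.20 and 1.79 ± 0.17, and the 3 correlated at 0.974 to 0.994. Against 6 h, those 2 gave 1.47 ± 0.20 and 1.45 ± 0.17, with adjusted p-values of 0.0641 and 0.0592. After a second quantile normalization 1419872_at gave 1.09 against 6 h and did not pass (adjusted p = 0.0869).

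Il4ra (chromosome 7, 125552271 to 125579474), the chain that binds IL-4, turned within the time course. By 1421034_a_at, ASXL1-MT cells measured 0.005 in IL-3, -0.03 at 2 h, -0.84 at 6 h and 1.58 at 24 h. In mock cells this probe set measured -0.005 in IL-3, 0.14 at 2 h, -0.84 at 6 h and 1.73 at 24 h. The 6 h array was lowest and the 24 h array highest in both cultures. Il4ra fell by 0.84 log2 at 6 h relative to IL-3 (SE 0.11, adjusted p = 0.0281), rose by 1.65 ± 0.11 at 24 h (adjusted p = 0.0103), and was 2.49 ± 0.11 higher at 24 h than at 6 h (adjusted p = 0.0349), a 5.63-fold difference. The second probe set of level 8 or more, 1423996_a_at, gave -1.07 ± 0.23 at 6 h (adjusted p = 0.0646) and rose by 1.92 ± 0.23 at 24 h (adjusted p = 0.0167). The third, 1447858_x_at, was dim and parted from them: it gave -2.84 ± 0.56 at 6 h (adjusted p = 0.053) and -0.77 ± 0.56 at 24 h (adjusted p = 0.393). With the mean of the 3, the fall at 6 h was -1.58 (adjusted p = 0.0379) and the 24 h difference was 0.93 and did not pass (adjusted p = 0.0795). After a second quantile normalization 1421034_a_at gave 1.03 at 24 h (adjusted p = 0.0221), and its difference from 6 h, 1.87, did not pass (adjusted p = 0.0612).

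**Figure D3:**
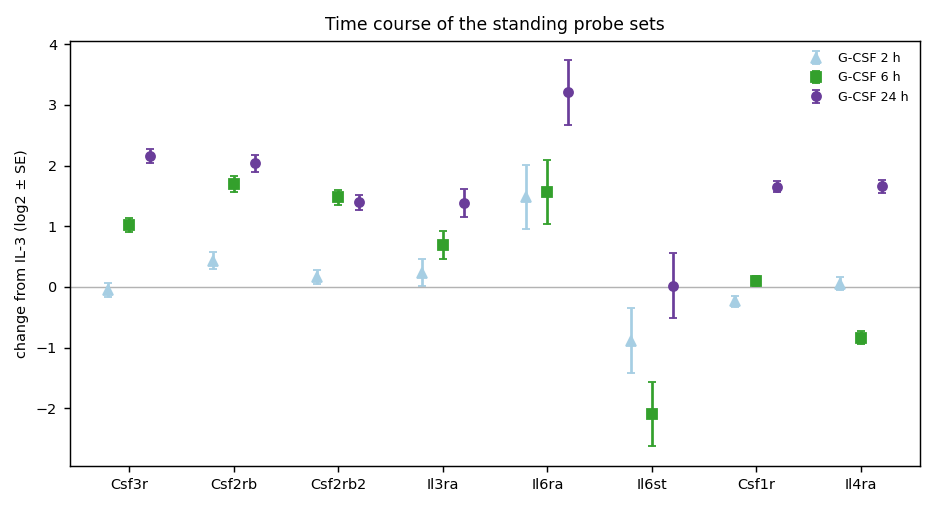
Change from IL-3 (vertical axis, log2 with the SE of the fit as bars) at 2, 6 and 24 h in G-CSF for the 8 genes tested by their standing probe set. In these values as deposited Csf2rb and Csf2rb2 are near their 24 h change at 6 h (above it after a second quantile normalization), Csf3r is about midway, Csf1r is near 0 at 6 h, and Il4ra is below 0 at 6 h and above it at 24 h.

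Differences in timing between genes were not tested. Between 6 and 24 h 2 of the 8, Csf1r and Il4ra, rose, where 0.735% of all genes were called (0.567% higher, 0.169% lower). At 6 h the calls were Csf2rb, Csf2rb2 and Csf3r higher (6.84% of all genes were higher) and Il4ra lower (5.32% of all genes were lower). At 2 h 0 of 8 were called, as were 0 of all 29353 probe sets, with a smallest adjusted p of 0.075. Unadjusted p-values at 2 h were under 0.05 for 2 of the 8 receptor genes, Csf2rb and Il6ra, and for 7.37% of all genes and 8.13% of all probe sets. The 2 Il6ra probe sets went opposite ways at 2 h, 1452416_at by 1.48 ± 0.53 and 1422270_a_at by -0.75 ± 0.25. In a bulk sample, a change in RNA per cell and a change in the share of cells that carry the transcript cannot be told apart.

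These calls rest on few arrays. Leaving out any 1 of the 8 arrays took the count at 6 h and that of 24 h against 6 h to 0. At 24 h against IL-3 the count was 6 without either 2 h array, 5 without either 6 h array, and 0 without any 1 of the IL-3 or 24 h arrays.

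Between the cultures, a comparison that asks whether ASXL1-MT alters the receptor transcripts, 0 of the 8 genes passed, and neither did any of the 29353 probe sets (0% called; smallest adjusted p 0.503). Unadjusted p-values under 0.05 were found for 3 of the 8, namely Csf3r, Csf2rb2 and Il6ra, against 5.81% of all genes and 5.93% of all probe sets. Csf3r was lower in ASXL1-MT than in mock cells at 4 of 4 times, by -0.41 in IL-3, -0.34 at 2 h, -0.28 at 6 h and -0.13 at 24 h. The fitted difference was -0.29 ± 0.08 (95% interval -0.51 to -0.07; adjusted p = 0.828). Csf2rb2 was higher at 4 of 4 times, by 0.49 in IL-3, 0.16 at 2 h, 0.30 at 6 h and 0.39 at 24 h. Its fitted difference was 0.34 ± 0.08 (95% interval 0.11 to 0.57, adjusted p = 0.828). The probe set annotated to both beta chains, 1450200_s_at, did not share this: it was higher at 2 of 4 times, with a fit of 0.05 ± 0.15 (adjusted p = 0.956). The share of all genes that kept 1 sign at 4 of 4 times was not counted.

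Il6ra by the probe set that stands for it differed most, by -2.71 in IL-3, -1.83 at 2 h, -0.70 at 6 h and -1.10 at 24 h. The fit gave -1.58 ± 0.38 (adjusted p = 0.828), and the other Il6ra probe set gave 0.04 ± 0.17, so the gene's probe sets did not point the same way. Il3ra was also lower at 4 of 4 times, by -0.47 in IL-3, -0.75 at 2 h, -0.02 at 6 h and -0.06 at 24 h, with a fit of -0.33 ± 0.16 (95% interval -0.76 to 0.11). Differences were smaller for Csf1r (-0.14 ± 0.06), Csf2rb (0.09 ± 0.10) and Il4ra (-0.08 ± 0.07). Il6st gave 0.67 ± 0.38.

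The change of the vector difference at 24 h, relative to the other times, was tested with an added term. None of the 8 genes was called, nor any of the 29353 probe sets (0% called; smallest adjusted p 0.499). No receptor gene had an unadjusted p under 0.05, against 5.4% of all genes and 5.92% of all probe sets. The estimates were imprecise: the interval for Csf3r was -0.31 to 0.74 around 0.21, and for Csf2rb -0.51 to 0.89 around 0.19.

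**Figure D4:**
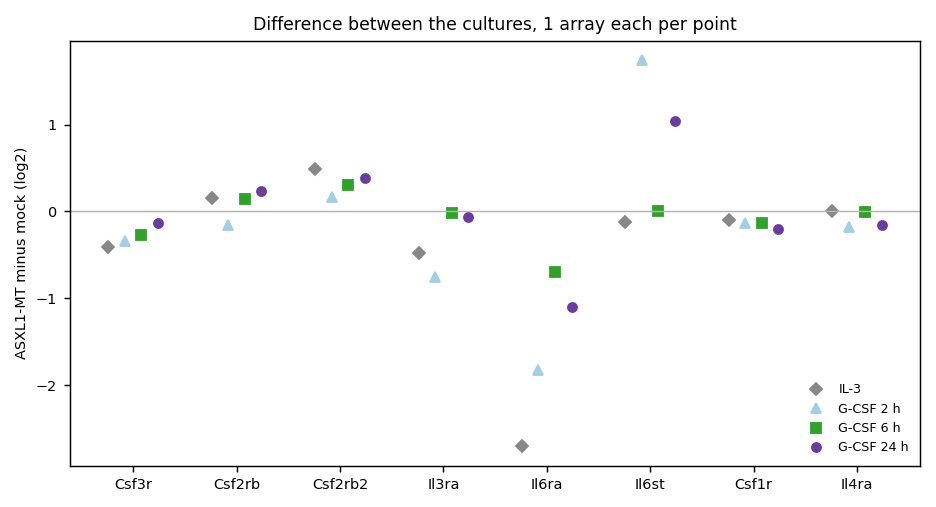
Difference between the cultures, ASXL1-MT minus mock (vertical axis, log2), at IL-3 and at 2, 6 and 24 h of G-CSF for the 8 tested genes; each point is 1 array against 1 array, so there is no error bar. All 4 points, of the standing probe sets, lie below 0 for Csf3r, Il3ra, Il6ra and Csf1r and above 0 for Csf2rb2, and no gene passed the test. Of the other probe sets, Csf1r 1419873_s_at was lower at 3 of 4 times, Csf1r 1423593_a_at at 4 and Il6ra 1422270_a_at at 1. The probe set annotated to both Csf2rb and Csf2rb2, 1450200_s_at, is not drawn and was higher at 2 of 4 times.

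Other chains of the same receptor systems were followed through a list of 33 further cytokine receptors, of which 22 were tested. At 24 h 14 rose and none fell, where 12.4% of all genes were higher and 9.96% lower. The median change of the 22 was 0.92 log2, against 0.09 over all genes. At 6 h 7 rose and 2 fell, where 6.84% of all genes were higher and 5.32% lower, and at 2 h none was called. Il2ra, the alpha chain of the IL-2 receptor, had the same turn as Il4ra: it fell by 1.47 log2 at 6 h (SE 0.20), rose by 2.75 ± 0.20 at 24 h, and was 4.22 ± 0.20 higher at 24 h than at 6 h. Il27ra, which with Il6st forms the IL-27 receptor, rose by 2.44 ± 0.30 at 6 h and 2.64 ± 0.30 at 24 h. Ifngr1, the ligand-binding chain for interferon gamma, rose by 2.23 ± 0.12 at 24 h. Il5ra, the alpha chain that pairs with Csf2rb for IL-5, rose by 1.89 ± 0.19 at 6 h and was 0.60 ± 0.19 above IL-3 at 24 h, which did not pass (adjusted p = 0.0974).

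**Figure D5:**
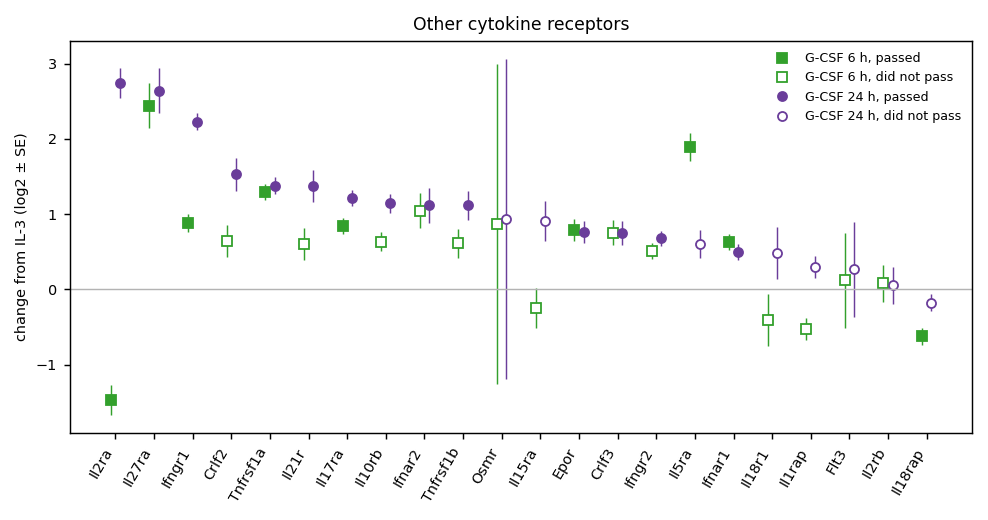
Change from IL-3 (vertical axis, log2 with the SE of the fit) at 6 h (green squares) and 24 h (purple circles) for the 22 tested genes of the list of other cytokine receptors, ordered by their 24 h change. Filled symbols passed at an adjusted p under 0.05 and open symbols did not; 14 genes rose at 24 h, and Il2ra is below 0 at 6 h and highest at 24 h.

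Transcripts of the machinery inside the cell moved in both directions. Of 13 tested Janus kinases, STAT factors and other receptor-associated kinases 8 rose at 24 h and none fell, with a median of 0.79 log2. Over all genes 12.4% were higher at 24 h and 9.96% lower, with a median of 0.09 log2. Stat3, the main STAT factor downstream of the G-CSF receptor, rose by 1.69 ± 0.10 at 6 h and 1.99 ± 0.10 at 24 h. Jak3, the kinase bound to the common gamma chain, rose by 2.12 ± 0.17 at 24 h, and the kinase Fes by 1.86 ± 0.09.

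Of 22 tested feedback regulators and adaptors 3 rose and 4 fell at 24 h, where 12.4% of all genes were higher and 9.96% lower. Cish, an inhibitor induced by STAT5, fell by 2.40 log2 at 6 h (SE 0.16) and fell by 1.82 log2 at 24 h (SE 0.16). Socs3, which binds gp130 and the G-CSF receptor and limits their signal, rose by 3.07 ± 0.31 at 24 h. Of 10 tested transcription factors of myeloid receptor genes 5 rose and 1 fell at 24 h, against the same shares of all genes. Spi1, which encodes PU.1, rose by 1.16 ± 0.13 at 6 h and 1.45 ± 0.13 at 24 h, and Cebpd, a member of the C/EBP family, by 1.32 ± 0.11 and 2.40 ± 0.11. Gata1 rose by 1.14 ± 0.11 at 6 h and Gfi1 by 1.39 ± 0.11 at 24 h, and Gata2 was the factor that fell at 24 h. Within the C/EBP family Cebpb also rose at 24 h (1.03 ± 0.10), and Cebpa did not pass (1.03 ± 0.38, adjusted p = 0.136).

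Ligands of the receptors were mostly dim: 9 of the 19 on the array were tested. At 24 h 1 rose and 3 fell, with a median of -0.84 log2, where 12.4% of all genes were higher and 9.96% lower. Il15 rose by 1.67 ± 0.22, Il4 fell by 1.62 log2 (SE 0.35), Il6 fell by 4.91 log2 (SE 1.04), and Osm fell by 0.84 log2 (SE 0.11). At 6 h Il15 and Csf1 rose, by 1.79 ± 0.22 and 1.14 ± 0.22, and Osm fell by 1.33 log2 (SE 0.11). Over all genes 6.84% were higher at 6 h and 5.32% lower. For Il6 the added 24 h term was 3.47 ± 0.24 log2 and did not pass, so the additive fall may not hold alike in both cultures. Csf3, Csf2 and Il3 were among the 10 too dim to test. Between the cultures 0 genes of these 5 lists passed.

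Markers of the cell types in which the receptors are known moved as well. Over all genes 12.4% were higher at 24 h and 9.96% lower. A marker high only at 24 h could enter the tests through its 24 h arrays. Of 13 neutrophil markers listed, 12 were on the array and 9 were tested, and all 9 rose at 24 h. Camp, Mmp8, Mmp9 and Ly6g were not tested. The mean centred value of the 9 reached 1.75 in ASXL1-MT and 1.83 in mock cells at 24 h. In IL-3 it was -0.65 and -0.14 in the same cultures. Of 10 eosinophil, basophil and mast cell markers 6 rose at 24 h, led by the granule proteins Prg2 (6.51 ± 0.47) and Prg3 (5.91 ± 0.45), and 1 fell, the transcription factor Gata2 (-1.31 ± 0.13). Their mean centred value at 24 h was 1.57 in ASXL1-MT and 1.00 in mock cells, and in IL-3 it was -0.57 and -0.81. Of 7 monocyte and macrophage markers, the cells best known for Csf1r, 3 rose and none fell, among them the chemokine receptor Ccr2 (6.01 ± 1.12) and the lysosomal protein Cd68 (1.53 ± 0.18). Adgre1, which encodes a macrophage surface antigen, differed by -0.10 ± 0.10, and Marco, Cx3cr1, C1qa and Mertk were too dim to test. Of 3 erythroid markers 1 rose and 2 fell, and of 3 lymphoid markers none passed. Their part in the receptor changes was not tested.

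The genes whose arrays ran most like those of 2 receptors were sought among 12246 tested probe sets with a range of at least 1 log2. The Pearson correlations over the 8 arrays are descriptive, since all genes share the same arrays and time course. For Csf3r they were Med21 (r = 0.999), a Mediator subunit, Grn (r = 0.998), which encodes progranulin, Gsn (r = 0.997), which encodes the actin-severing protein gelsolin, Siglecf (r = 0.996), a surface lectin of eosinophils, and Mtm1 (r = 0.996), a phosphoinositide phosphatase. For Csf2rb they were Klhl24 (r = 0.993), Pik3ip1 (r = 0.993), a negative regulator of phosphoinositide 3-kinase, Rnf125 (r = 0.992), a ubiquitin ligase, Man2b1 (r = 0.991), a lysosomal mannosidase, and Ston2 (r = 0.990).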

How the data were processed

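RNA of 8 samples was hybridised to Affymetrix mouse arrays. The authors' deposited table holds log2 values of 45037 probe sets; intensities were captured with MAS 5.0 per the labels' design text, and the submitters' processing notes name RMA. The sources used here state neither centring nor log base; no probe set had a median over 5e-07 from 0, and base 2 was assumed because RMA gives it. The level before centring was estimated from the rounding step of the stored single-precision numbers. Gene symbols came from GEO's platform annotation (34945 probe sets with 1 symbol, 932 with several, 9160 with none).

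Values were tested as deposited with limma 3.58.1 in R 4.3.3 (lmFit, eBayes; two-sided) in an additive model of both factors, leaving 3 residual degrees of freedom (2 with the added 24 h term) and a prior worth 1.23. P-values were adjusted by Benjamini-Hochberg over the 29353 probe sets tested, at 0.05. Alternatives covered filters, probe set summaries, scalings, variance model, covariates and left-out arrays. The receptor genes and all lists were chosen with earlier results of these data known. Named beside the receptors were up to 3 of the largest passing changes per list and comparison, and the 5 genes of most like pattern for Csf3r and Csf2rb; genes named outside this rule were chosen after their values were seen. Sequences and positions are from RefSeq (GRCm38.p6).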

Additional observations from a re-analysis of the deposited data

Results flagged for a closer look

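Several receptor probe sets changed by at least 0.5 log2 in opposite directions in the 2 cultures. With 1 array per condition these differences were not tested, and all lie in probe sets of level under 8. For Csf2ra, 1420703_at changed between IL-3 and 2 h by 2.69 in ASXL1-MT and -1.02 in mock cells, a difference of 3.71 log2. Between 6 and 24 h the same probe set changed by 2.29 in ASXL1-MT and -1.11 in mock cells, a difference of 3.39. The other Csf2ra probe set, 1420704_at, differed by 2.66 at 2 h (2.01 in ASXL1-MT, -0.65 in mock) and by 2.35 at 6 h (1.60 in ASXL1-MT, -0.75 in mock).

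For Il6st, 1437303_at differed by 3.75 at 2 h (2.83 in ASXL1-MT, -0.92 in mock) and by 4.07 at 24 h (2.22 in ASXL1-MT, -1.86 in mock). Probe set 1421239_at differed by -2.68 at 6 h (-1.86 in ASXL1-MT, 0.82 in mock). Probe set 1452843_at, which stands for the gene, differed by 1.15 at 24 h (0.59 in ASXL1-MT, -0.56 in mock). The 4 Il6st probe sets did not share a pattern, and no difference of this kind was met in a receptor probe set of level 8 or more.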

How the results depend on the processing

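Of the receptor genes 4 were called at 6 h, 7 at 24 h and 2 at 24 h against 6 h. Without a filter on dim probe sets these counts were 0, 4 and 0 of 9 tested. With the stricter filter, which left 6 receptor genes, 4 were called at 24 h against 6 h. After a second quantile normalization, 0 were called at 24 h against 6 h; it shifts the median over the tested probe sets by -0.20 log2 for 24 h against IL-3 and by -0.06 for 24 h against 6 h. Fitted on only the 4 arrays of the times compared, with fewer residual degrees of freedom, all 3 counts were 0. Leaving out 1 array at a time gave 0 to 0 at 6 h, 0 to 6 at 24 h and 0 to 0 at 24 h against 6 h. The vector test, the added 24 h term and 2 h stayed at 0 under every alternative run, including the vector test without time points as pairs (no time point term). The added 24 h term could not be fitted without either 24 h array.

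Across receptor values and alternatives, 547 stayed on their side of the threshold, 109 lost it and 6 gained it. Only values called in the main fit could lose it, and many of the 547 were called in neither fit. The called values kept their call in from 5 of 16 alternatives (Il6ra at 24 h) to 12 of 17 (Csf3r, Csf2rb and Csf1r at 24 h against IL-3). The sign changed in 12 of these 662, of which 0 were called in either fit; they include Csf2rb at 24 h against 6 h (-0.20 after quantile normalization) and Il6st there (-0.11 with the mean of its probe sets). Csf3r at 24 h ranged from 1.55 to 2.26 and Csf2rb from 1.67 to 2.13. Csf3r at 24 h against 6 h passed under the stricter filter (adjusted p = 0.00264), and was 0.46 after quantile normalization (adjusted p = 0.219). Of the called values, those of Il4ra and Il6ra moved by over 1.5 times, as given above. No paired analysis by replicate number was possible because each condition has 1 array.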
